A study of Mus musculus with 24 samples.

Results

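The 5 genes described here serve the uptake and use of glutamate in astrocytes and the glutamine cycle: Slc1a2, Slc1a3, Glul, Slc38a3 and Glud1. They were taken by symbol from a table of counts on 49671 genes, and all 5 passed the filter on low counts that left 19691 genes for testing. The table holds 24 mouse RNA-seq libraries in 6 groups of 4. NSC were neural stem cells derived from the embryonic stem cell line GSC-5003 (C57Bl/6 N) and propagated in FGF and EGF (20 ng/ml of each). AGES, astrocytes generated from embryonic stem cells, were the same NSC after 3 to 5 days with 20 ng/ml BMP4 in place of FGF and EGF and on another coating, and these changes cannot be told apart. The other groups were C57BL/6J astrocytes taken from brain with magnetic beads against the surface antigen ACSA-2, at an age of 4 to 8 days (neoAC) or 100 to 140 days (AdAC), and either frozen at once (direct) or cultured for 7 to 10 days (CellC). Each isolation pooled 2 mice, with both sexes used in the study, and counts as 1 replicate, while replicates of NSC and AGES were passages of a single line, so their spread does not include differences between lines. Neonatal and adult brains were dissociated with different kits, and age and kit therefore cannot be told apart. The paper's methods state removal of olfactory bulb and cerebellum for direct isolation of adult cells, and cerebral tissue without meninges for neonatal cells. Culture and brain region therefore may not be separable in adult cells, nor age and region. The medium of the cultured primary astrocytes received 0.5 mM glutamine and that of NSC and AGES contained 2 mM Glutamax, so cell origin and medium cannot be told apart either.

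Astrocytes end the action of glutamate at synapses by taking it up through sodium-driven carriers. Inside the cell, glutamine synthetase joins ammonia to glutamate, and the resulting glutamine leaves through system N carriers and returns to neurons, which make glutamate from it again. Glutamate that is not amidated can enter mitochondria and be oxidised through glutamate dehydrogenase. Slc1a2 encodes GLT-1, the main glutamate carrier of the mature forebrain, and Slc1a3 encodes GLAST, which is prominent in radial glia, in immature astrocytes and in Bergmann glia. Glul encodes glutamine synthetase, a classical astrocyte enzyme that oligodendrocytes can also make. Slc38a3 encodes SNAT3, a system N carrier that moves glutamine, and Glud1 encodes mitochondrial glutamate dehydrogenase.

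In GRCm38 with Gencode vM21, Slc1a2 (ENSMUSG00000005089) lies on the plus strand at chr2:102658659-102790784, with 20 exons after merging its 12 transcripts. Slc1a3 (ENSMUSG00000005360) lies on the minus strand at chr15:8634124-8710764 with 13 merged exons. Glul (ENSMUSG00000026473) is on the plus strand at chr1:153899944-153909723, with 10 merged exons. Slc38a3 (ENSMUSG00000010064) is on the minus strand at chr9:107650634-107669530, with 17. Glud1 (ENSMUSG00000021794) is on the plus strand at chr14:34310727-34345265, with 15. All 5 are protein-coding, and their merged vM21 exons span 13133, 8537, 3323, 5277 and 4210 bases in this order. Values per kilobase below use these lengths, while the counts were made on exons of Gencode vM12, which may differ. Exons of Slc1a2 overlap the opposite-strand gene Gm13872 over 189 bases, and exons of Glul overlap the opposite-strand gene Teddm2 over 116 bases, so reads there may be shared if strand was not used in counting. Mir8114 lies on the strand of Glul and shares 93 bases with it, which strand would not separate. A processed copy of Glul, Glns-ps1, matches it over 1126 bases at 96.8% identity and had at most 713 counts in any library. Glud-ps matches Glud1 over 656 bases at 97.6% identity and had at most 149 counts.

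Promoters of 3 members are shown because these genes fell together in culture, while their base composition differs. Each window holds the 250 bases before the start site that RefSeq gives in GRCm38.p6, on the gene's own strand. Capitals mark 3 motifs searched on both strands, namely CCAAT, the GC box GGGCGG and the TATA box TATAAA, and none of the marked matches overlaps another.
Slc1a3, chr15:8710808-8711057, minus strand: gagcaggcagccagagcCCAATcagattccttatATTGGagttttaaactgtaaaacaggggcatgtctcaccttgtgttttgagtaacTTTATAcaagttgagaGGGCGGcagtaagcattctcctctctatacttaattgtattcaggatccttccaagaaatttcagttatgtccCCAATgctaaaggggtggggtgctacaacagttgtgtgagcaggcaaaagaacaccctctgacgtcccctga
Glul, chr1:153899679-153899928, plus strand: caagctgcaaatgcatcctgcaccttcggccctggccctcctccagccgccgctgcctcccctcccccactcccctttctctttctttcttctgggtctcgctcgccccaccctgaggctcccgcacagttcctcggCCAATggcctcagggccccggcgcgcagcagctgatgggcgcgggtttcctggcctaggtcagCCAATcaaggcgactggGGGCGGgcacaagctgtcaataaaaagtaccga
Glud1, chr14:34310477-34310726, plus strand: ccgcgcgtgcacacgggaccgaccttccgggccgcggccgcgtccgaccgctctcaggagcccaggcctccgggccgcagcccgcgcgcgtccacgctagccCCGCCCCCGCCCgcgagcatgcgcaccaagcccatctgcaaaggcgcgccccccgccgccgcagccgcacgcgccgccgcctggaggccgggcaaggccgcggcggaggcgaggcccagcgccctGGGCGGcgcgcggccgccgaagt
The Slc1a3 window had 3 matches to CCAAT, 1 to GGGCGG and 1 to TATAAA on the reverse strand, and 44.8% of its bases were G or C. The Glul window had CCAAT at 113 to 109 and at 50 to 46 bases before the start, GGGCGG at 33 to 28 bases before it, and 64.8% G or C. The Glud1 window had 3 matches to GGGCGG, of which 2 directly adjoin each other, and 82.0% G or C, a share above that of 99.3% of the windows. Among all 32851 windows of this length, 33.8% held CCAAT, 32.7% held GGGCGG and 12.4% held TATAAA, and the median share of G or C was 52.4%. The RefSeq window of Slc1a2 belongs to a start at position 102706438, inside the longer Gencode gene, and was not printed. These matches describe letters in a window and were not tested against the expression values.

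Library totals lay between 27904126 and 37997368 counts. Values below are CPM, counts brought to a common library total with edgeR's TMM factors, given as mean ± SD of 4 libraries. By Dixon's criterion, which can miss outliers among 4 values, no library of any group stood out from the other 3 for any member. Differences are log2 fold changes, and their p-values, two-sided and adjusted over all tested genes, came from a single quasi-likelihood fit in edgeR to all 6 groups. Because the samples are bulk RNA, fewer cells of a type and less RNA per cell cannot be told apart. The labels were compared with 8 astrocyte markers (Aldh1l1, Aqp4, Gja1, Aldoc, Gfap, S100b, Atp1b2 and Gjb6). Their summed level was 427 to 586 CPM in NSC, 707 to 1070 in AdAC CellC, 5680 to 6890 in neoAC CellC, 7460 to 8060 in AdAC direct, 9540 to 10300 in neoAC direct and 53100 to 58000 in AGES. In AGES most of that sum was Gfap at 50480 CPM. Aldoc was at 3307, Atp1b2 at 910.7, S100b at 271.3 and Aqp4 at 244.5 CPM. Aldh1l1 was at 15.0, Gja1 at 10.31 and Gjb6 at 0.230 CPM. The summed level of 6 oligodendrocyte markers (Mbp, Mog, Mag, Mobp, Cnp and Cldn11) was 12900 to 13700 CPM in AdAC direct and 3260 to 8250 CPM in AdAC CellC, but at most 361 CPM in any other library, and none of the 6 was at 0 in a whole group. Labelled adult astrocytes thus carried strong oligodendrocyte transcripts. In both adult groups, fresh and cultured, their sum exceeded that of the astrocyte markers, with Mbp alone at 4552 and 3354 CPM. Sums over different genes do not give shares of cells. The paper described the oligodendrocyte contamination of its adult isolations as slightly higher but still low. The part of either cell type in the member levels was not tested.

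**Figure D1:**
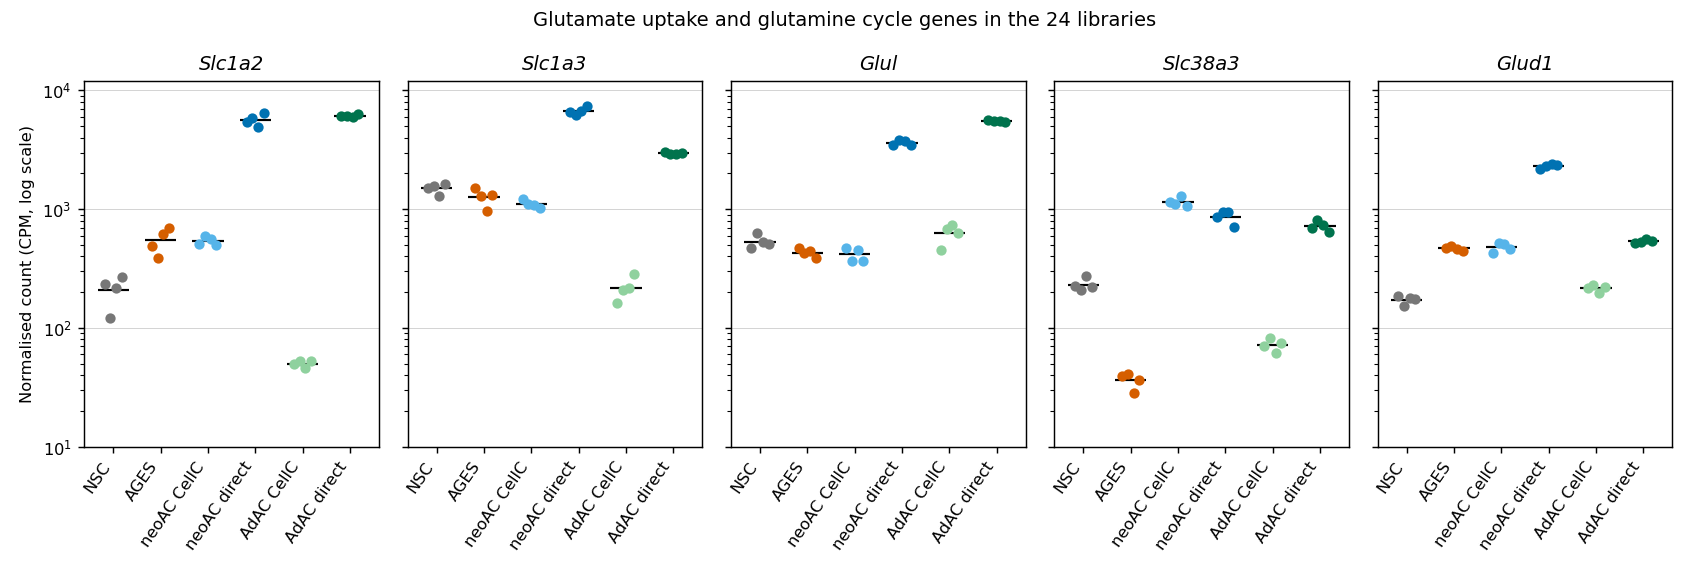
Normalised counts (CPM, log scale) of the 5 genes in every library, one point per library and a line at the mean of each group of 4. Slc1a2, Slc1a3 and Glul were highest in the directly isolated groups, Slc1a2 and Slc1a3 were lowest in AdAC CellC, and Slc38a3 was lowest in AGES.

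Slc1a2, the gene of GLT-1, showed the widest range of the 5 genes, taken as a fold between group means. These are RNA levels, and the paper found stable GLT-1 protein across its cell types by Western blot. Slc1a2 was at 6066, 6104, 5955 and 6275 CPM in the libraries of AdAC direct and at 5453, 5836, 4932 and 6485 CPM in those of neoAC direct. The 2 groups overlapped, and the difference of −0.10 for neonatal over adult cells did not pass the test (95% interval −0.45 to 0.25, edgeR adjusted p = 0.598). AGES followed with 486, 388, 621 and 692 CPM, and neoAC CellC with 507, 597, 565 and 497 CPM. These groups also overlapped, with a difference of 0.01 (95% interval −0.34 to 0.36). NSC had 233, 122, 216 and 270 CPM. AdAC CellC stood lowest by far, with 49.3, 52.3, 45.8 and 52.4 CPM. Apart from the 2 overlapping pairs, neighbours in this order were separated, the closest being neoAC CellC above NSC by 1.37 (edgeR adjusted p = 9.07e-08, in a comparison where 80.6% of all tested genes were called).

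In culture Slc1a2 fell in both ages, but to different depths. In adult cells the level dropped from 6100 ± 132 to 49.9 ± 3.15 CPM, 122-fold, and in neonatal cells from 5676 ± 654 to 541 ± 47.5 CPM, 10.5-fold. The difference between the 2 changes was −3.54 (SE 0.25, 95% interval −4.06 to −3.03, edgeR adjusted p = 4.08e-12). Relative to all protein-coding genes ranked by CPM per kilobase of exon, Slc1a2 went from ranks 42 to 49 of 21734 in AdAC direct to ranks 8623 to 9002 in AdAC CellC. Over the same pair of groups the sum of the astrocyte markers had the ranges given above, and the part of changed cell composition in the fall of Slc1a2 was not tested.

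Slc1a3, the gene of GLAST, had a different order. Slc1a3 was highest in neoAC direct, at 6557, 6227, 6724 and 7369 CPM. AdAC direct had 3035, 2904, 2925 and 2960 CPM. No neonatal library came down to an adult one, and the neonatal level was 2.27-fold higher (log2 fold change 1.18, SE 0.13, edgeR adjusted p = 1.84e-08). NSC had 1512, 1571, 1298 and 1614 CPM, AGES 1516, 1279, 957 and 1304 CPM, and neoAC CellC 1215, 1116, 1094 and 1015 CPM. These 3 groups lay close together: NSC overlapped AGES and AGES overlapped neoAC CellC (edgeR adjusted p = 0.106 and 0.201), whereas NSC lay above neoAC CellC by 0.43 (edgeR adjusted p = 0.00436). AdAC CellC was lowest again, at 163, 210, 216 and 286 CPM. Culture lowered Slc1a3 13.5-fold in adult cells (−3.76, SE 0.15) and 6.05-fold in neonatal cells (−2.60, SE 0.14), and the adult fall was deeper by 1.16 (SE 0.19, edgeR adjusted p = 6.27e-06).

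The balance of the 2 carriers shifted with age and culture. Per kilobase of merged exon, Slc1a2 made up 57.3% of the sum of both carriers in AdAC direct, with libraries between 56.5% and 57.9%. In neoAC direct its share was 35.4% (32.3% to 37.9%). Directly isolated adult cells were thus the only group in which GLT-1 transcripts outnumbered GLAST transcripts per length. The share was 24.1% in neoAC CellC (21.3% to 25.8%), 22.2% in AGES (16.5% to 29.7%), 13.3% in AdAC CellC (10.6% to 16.5%) and 8.36% in NSC (4.79% to 9.80%). These shares come from counts within a library and do not depend on its scaling, but do depend on the exon lengths of the annotation, and no test was made of them.

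Glul, the enzyme that makes glutamine, was the most abundant of the 5 genes per kilobase in both directly isolated groups. AdAC direct had 5601, 5523, 5534 and 5403 CPM, and neoAC direct 3490, 3821, 3735 and 3481 CPM. All adult libraries lay above all neonatal ones, and the neonatal level was lower by 0.60 (SE 0.12, edgeR adjusted p = 8.28e-05). Per kilobase this amounted to 1660 ± 24.8 CPM in AdAC direct, where Glul ranked 5 or 6 among the 21734 protein-coding genes, and to 1093 ± 51.9 CPM in neoAC direct, where it ranked 12 to 14. The remaining 4 groups stayed within a narrow band. AdAC CellC had 457, 676, 742 and 627 CPM, NSC 468, 629, 529 and 512 CPM, AGES 468, 427, 442 and 389 CPM, and neoAC CellC 475, 370, 456 and 363 CPM. Neighbours in that band did not differ beyond their spread for NSC and AdAC CellC (−0.23, 95% interval −0.47 to 0.02, edgeR adjusted p = 0.0862, with 77.3% of all genes called) and for AGES and neoAC CellC (0.05, edgeR adjusted p = 0.699).

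In culture Glul fell to a similar extent at both ages. The log2 fold change was −3.14 in adult cells (SE 0.13, 8.82-fold) and −3.13 in neonatal cells (SE 0.13, 8.73-fold). Their difference of −0.01 had a 95% interval of −0.36 to 0.34 and did not pass the test (edgeR adjusted p = 0.953), which leaves room for unequal changes of up to that size. Slc1a2 and Slc1a3 fell more in adult than in neonatal cells, so the ratio of Glul to Slc1a2 per kilobase rose in adult culture to 49.8 ± 11.3, from 3.58 ± 0.123 in AdAC direct. In the other groups it was between 2.56 and 11.4 on average. The highest of these means, that of NSC, included replicate 2 at 20.4, with the other NSC libraries at 9.65 or less. In AdAC CellC the oligodendrocyte markers given above stood at 3260 to 8250 CPM, and their part in the Glul that remained was not tested.

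**Figure D2:**
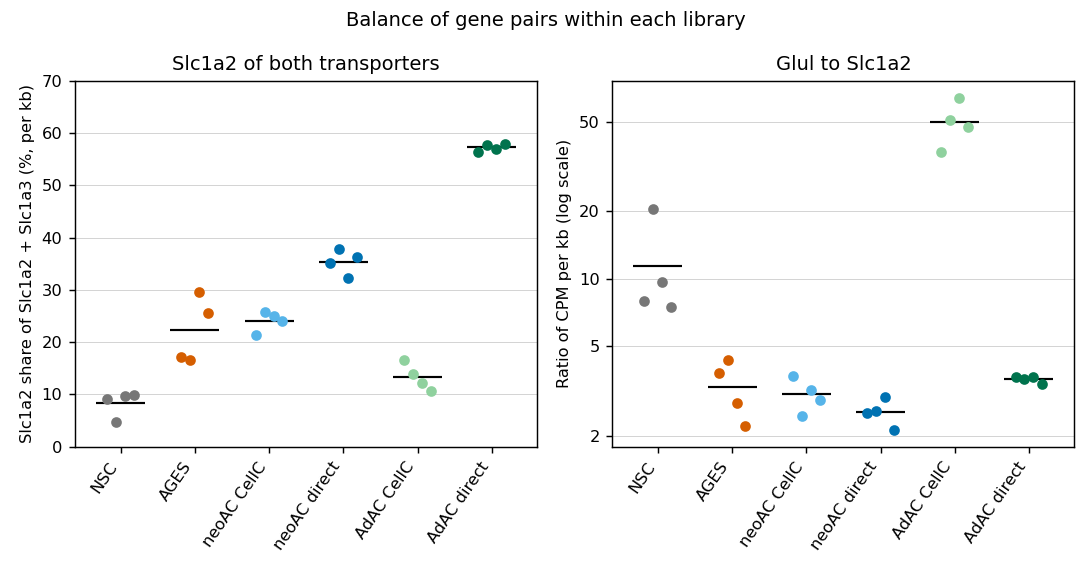
Pairs of genes within each library, from CPM per kilobase of merged exon: the share of Slc1a2 in the sum of Slc1a2 and Slc1a3 (linear axis), and the ratio of Glul to Slc1a2 (log axis). Points are libraries and lines are group means. The share of Slc1a2 passed 50% only in AdAC direct, and the ratio of Glul to Slc1a2 was highest in AdAC CellC.

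Slc38a3, the glutamine carrier, did not follow the other 4 genes. Its highest level was in cultured neonatal cells, with 1142, 1107, 1282 and 1071 CPM in neoAC CellC. The directly isolated groups came next, neoAC direct with 852, 949, 951 and 715 CPM and AdAC direct with 691, 818, 743 and 641 CPM. The cultured neonatal libraries all lay above the fresh neonatal ones, while the fresh neonatal and fresh adult libraries overlapped. Culture of neonatal cells raised Slc38a3 by 0.41 (SE 0.12, edgeR adjusted p = 0.00347), and culture of adult cells lowered it by 3.32 (SE 0.13, edgeR adjusted p = 1.56e-17), to 70.6, 81.9, 61.9 and 74.4 CPM. The difference between these changes was −3.73 (SE 0.17, 95% interval −4.08 to −3.38, edgeR adjusted p = 1.26e-15). NSC had 226, 208, 272 and 219 CPM. AGES were lowest of the 6 groups, with 39.4, 40.5, 28.3 and 36.5 CPM, 6.39-fold below the NSC they came from and below every AdAC CellC library. The fresh neonatal level was 0.26 above the fresh adult one (SE 0.12, edgeR adjusted p = 0.0482), a call that was lost when any of 6 of the 8 libraries was left out (adjusted p 0.0115 to 0.133 over the 8), including every AdAC direct library but replicate 2 and every neoAC direct library but replicate 4.

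Glud1, which oxidises glutamate in mitochondria, was set apart by its high level in fresh neonatal cells. Libraries of neoAC direct had 2200, 2321, 2405 and 2350 CPM. Those of AdAC direct had 518, 532, 562 and 543 CPM, 4.30-fold less and without overlap (log2 fold change 2.11, SE 0.08, edgeR adjusted p = 2.12e-17). The neoAC CellC libraries followed with 425, 521, 514 and 462 CPM, and AGES with 473, 490, 461 and 447 CPM. The cultured neonatal level was at −0.17 from the fresh adult one (95% interval −0.33 to −0.01, edgeR adjusted p = 0.056, with 74% of all genes called), and that of AGES at −0.04 from the cultured neonatal one (edgeR adjusted p = 0.669). AGES were below the fresh adult cells by 0.20 (SE 0.08, edgeR adjusted p = 0.0188, with 80.4% of all genes called), without overlap of the libraries. AdAC CellC had 219, 229, 195 and 219 CPM, and NSC had 186, 154, 180 and 174 CPM, lower by 0.31 (edgeR adjusted p = 0.000762). The fall in culture was deeper in neonatal cells (−2.27, SE 0.08) than in adult cells (−1.32, SE 0.08), and the difference of 0.95 passed the test (SE 0.11, edgeR adjusted p = 3.24e-08), the reverse of what Slc1a2, Slc1a3 and Slc38a3 showed.

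**Figure D3:**
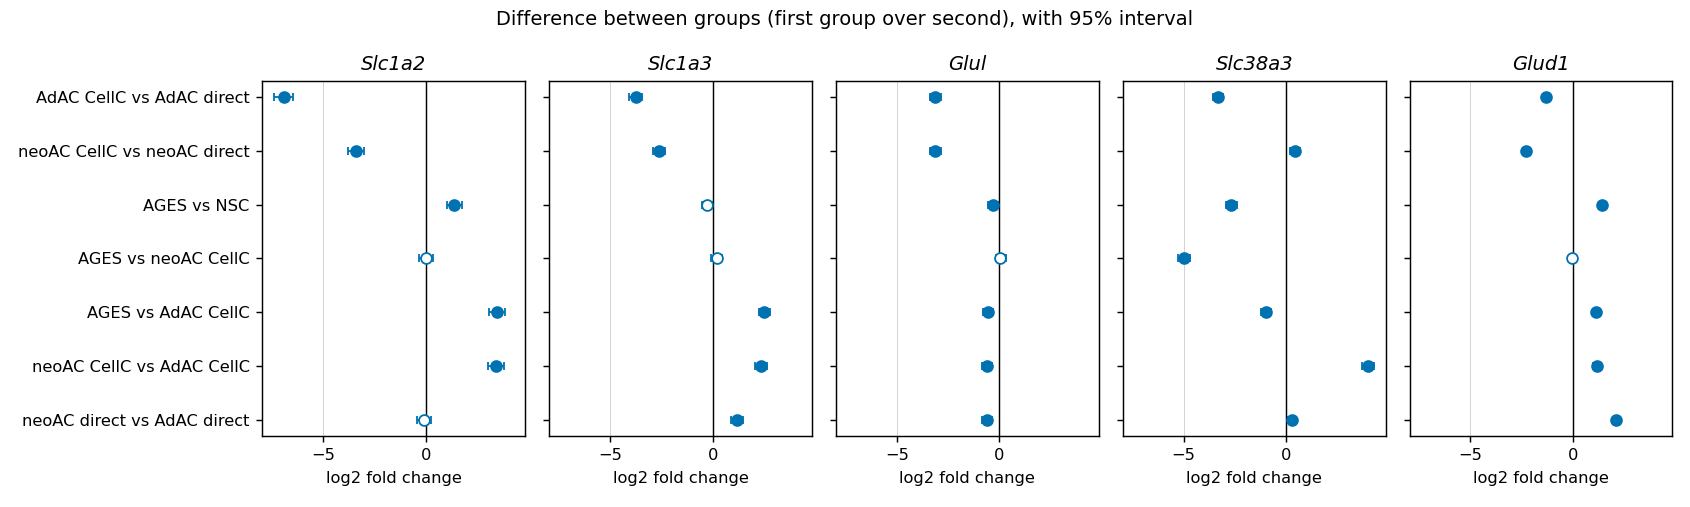
Log2 fold change of each gene in the 7 comparisons of the study, first group over second, with 95% intervals from the edgeR fit. Filled points have an adjusted p under 0.05 and open points do not. In AGES against neoAC CellC, 4 of the 5 points are open and lie near 0, and that of Slc38a3 is at −4.99.

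Culture of isolated astrocytes addresses what the cells keep once they leave the brain. In adult cells all 5 genes fell (edgeR adjusted p between 6.04e-19 and 6.91e-14) in a comparison where 39.2% of all tested genes were called lower, 38.8% higher and 78% in either direction. For none of the 5 did a cultured library overlap a fresh one, which was also so for 76.3% of all genes. Their log2 fold changes ran from −1.32 for Glud1 to −6.93 for Slc1a2, with a median of −3.32, whereas the median of all tested genes was 0. In neonatal cells 4 fell and Slc38a3 rose, against 31.3% of all genes called lower, 34.4% higher and 65.7% in either direction. All 5 were free of overlap (58% of all genes), and the median of the 5 was −2.60 (all genes 0.04). The 4 that fell did so between 4.83-fold for Glud1 and 10.5-fold for Slc1a2. Both comparisons called most genes, so the size of the changes says more about the members than their number. The change in culture differed between ages for 4 of the 5 genes, against 68.6% of all genes, with Glul the exception. Foxj1, Ccdc153 and Tmem212, markers of ependymal cells, summed to 113 to 170 CPM in neoAC direct and 1240 to 1570 CPM in neoAC CellC, but to 870 to 979 CPM in AdAC direct and 192 to 270 CPM in AdAC CellC. Their sum thus went up in neonatal and down in adult culture, as Slc38a3 did. It was higher in AdAC direct than in neoAC direct, unlike Slc38a3. From 14.5 to 23.3 CPM in NSC it rose to 52.6 to 77.3 CPM in AGES, mostly through Foxj1, while Slc38a3 fell. Of 4 markers of fibroblasts and mural cells, Col1a1 went from 38.2 to 813 CPM in adult culture and Pdgfrb from 139.9 to 69.1 CPM, while Dcn and Lum had means of at most 10.5 CPM there. Markers of neural stem cells (Nes, Sox2 and Pax6) summed to 240 to 294 CPM in AdAC direct and 1340 to 1480 CPM in AdAC CellC, a change of Nes alone (52.1 and 1261 CPM), since the means of Sox2 and Pax6 were lower in AdAC CellC. The 6 neuronal markers summed to 45.1 to 56.8 CPM in AdAC direct and 175 to 247 CPM in AdAC CellC, mostly Tubb3 and Stmn2, whereas Snap25 went from 4.47 to 1.18 CPM and Rbfox3 from 0.769 to 0.265 CPM. In neonatal culture Nes went from 276 to 964 CPM. The sum of the 3 stem cell markers went from 662 to 844 CPM up to 1030 to 1480 CPM. That rise was again one of Nes alone, as Sox2 went from 367.8 to 155.5 CPM and Pax6 from 98.7 to 53.0 CPM. Of the fibroblast and mural markers, Col1a1 went from 60.2 to 191, Dcn from 12.3 to 17.0 and Lum from 1.84 to 12.8 CPM. Pdgfrb went the other way, from 133.9 to 47.8 CPM. In neonatal culture 4 endothelial markers went from 57.7 to 239 CPM down to 3.66 to 5.95 CPM. The part of these cells in the changes was not tested.

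Between NSC and AGES the members changed in different directions. Slc1a2 rose from 210 ± 63.1 CPM in NSC to 547 ± 136 CPM in AGES (1.38, SE 0.17, edgeR adjusted p = 1.13e-07), and Glud1 from 173 ± 13.7 to 468 ± 18.4 CPM (1.43, SE 0.08, edgeR adjusted p = 1.84e-14). Slc38a3 fell from 231 ± 27.9 to 36.2 ± 5.52 CPM (−2.68, SE 0.13, edgeR adjusted p = 7.23e-16). Slc1a3, already high in NSC, was at −0.25 (95% interval −0.52 to 0.03, edgeR adjusted p = 0.106). Glul was lower by 0.31 in AGES (SE 0.12, edgeR adjusted p = 0.0266), from 534 ± 67.9 to 431 ± 32.8 CPM, but this call was lost under DESeq2's size factors (−0.22, adjusted p = 0.109), with the DESeq2 Wald test, under the other filters, in a fit of the 2 groups alone, and without NSC replicate 2, AGES replicate 2 or AGES replicate 4. Slc1a3 was called lower without AGES replicate 1 (−0.35, adjusted p = 0.0318). Thus 2 members were called higher and 2 lower, while 31.7% of all genes were called higher, 34% lower and 65.7% in either direction, and 4 members were free of overlap (58.3% of all genes). In the same comparison 5 of the 8 astrocyte markers rose, Gfap by 10.59 (SE 0.21) and Aqp4 by 7.24 (SE 0.29) among them, while Aldh1l1 was at −0.33, Gja1 at −0.60 and Gjb6 at −0.60 and did not pass the test (edgeR adjusted p = 0.284, 0.0785 and 0.316).

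AGES were then compared with the cultured primary cells, the other in vitro models of the study. Against neoAC CellC, 4 of the 5 genes lay within 0.2 of each other on the log2 scale: Slc1a2 0.01, Slc1a3 0.19 (95% interval −0.08 to 0.46), Glul 0.05 (−0.19 to 0.30) and Glud1 −0.04 (−0.20 to 0.12). None of these passed the test, although 74.6% of all tested genes did in this comparison. Only Slc38a3 was called, against 40.5% of all genes lower and 34.1% higher, and only Slc38a3 was free of overlap (69.6% of all genes). It was 31.8-fold lower in AGES (−4.99, SE 0.14, edgeR adjusted p = 8.79e-21). The sum of the 3 ependymal markers was 52.6 to 77.3 CPM in AGES and 1240 to 1570 CPM in neoAC CellC, and their part in the difference was not tested. The 4 small differences depended on the scaling. With library size alone, which moved the median of all genes from −0.07 to −0.37, they were −0.29 for Slc1a2, −0.11 for Slc1a3, −0.25 for Glul and −0.34 for Glud1, and that of Glud1 then passed (adjusted p = 0.000587). Slc1a3 also passed when AGES replicate 3 was left out (0.30, adjusted p = 0.0394).

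Against AdAC CellC, AGES had 3 members higher and 2 lower, where 31% of all genes were called higher and 45.2% lower (76.2% in either direction) and the median of all genes was −0.23. Slc1a2 was 10.9-fold higher (3.45, SE 0.19), Slc1a3 5.78-fold higher (2.53, SE 0.14) and Glud1 2.17-fold higher (1.12, SE 0.08). Slc38a3 was lower by 1.00 (SE 0.12, edgeR adjusted p = 4.03e-08). Glul was lower by 0.54 (SE 0.12, edgeR adjusted p = 0.000275), although AGES replicate 1 at 468 CPM overlapped AdAC CellC replicate 1 at 457 CPM. The other 4 genes were free of overlap (73.1% of all genes). Cultured neonatal cells had Slc1a2 10.8-fold, Slc1a3 5.08-fold and Glud1 2.23-fold higher than cultured adult cells. The comparisons of AGES and of neoAC CellC with AdAC CellC share the latter's libraries. Slc38a3 was 15.9-fold higher in the cultured neonatal cells (3.99, SE 0.13) and Glul lower by 0.59 (SE 0.12, with overlap of the libraries). This made 4 members higher and 1 lower, against 28.5% and 35.2% of all genes (63.8% in either direction), and 4 free of overlap (62.2%). In neoAC CellC, AdAC CellC and AGES, the ependymal marker sum was 1240 to 1570, 192 to 270 and 52.6 to 77.3 CPM. In the same order, the astrocyte marker sum was 5680 to 6890, 707 to 1070 and 53100 to 58000 CPM. The oligodendrocyte marker sum was 212 to 279, 3260 to 8250 and 9.94 to 15.5 CPM. The part of these cells in the differences was not tested.

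Between fresh neonatal and fresh adult cells the members were mixed. Slc1a3, Glud1 and, weakly, Slc38a3 were higher in neonatal cells, Glul was lower and Slc1a2 was not called, so that 3 were called higher and 1 lower against 35% and 36.4% of all genes (71.4% in either direction). The libraries of 3 members did not overlap (64.9% of all genes). The sum of the 6 oligodendrocyte markers was 284 to 361 CPM in neoAC direct and 12900 to 13700 CPM in AdAC direct, and that of the 8 astrocyte markers 9540 to 10300 CPM and 7460 to 8060 CPM. The part of the oligodendrocyte transcripts, which take a share of each adult library, was not tested.

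The wider pathway was described with a list of 43 genes of glutamate and glutamine handling that excludes the 5 members. Of these, 42 passed the filter on low counts, Slc1a7 being the exception. In adult culture 19 rose and 18 fell (88.1% called, against 78% of all genes), and in neonatal culture 16 rose and 18 fell (81%, against 65.7%). The median log2 fold changes were 0.04 and 0.12, over genes that went both ways, and the list was not tested against the members. Among the 4 uptake relatives, Slc1a4, a carrier of serine, alanine and other neutral amino acids, fell in both cultures, from 1082 to 129 CPM in neonatal cells (−3.07, SE 0.19) and from 328 to 98.0 CPM in adult cells (−1.74, SE 0.18). Slc1a5, a glutamine carrier, rose in both, by 2.36 in adult (SE 0.16) and 2.05 in neonatal cells (SE 0.16), while reaching a mean of at most 54.5 CPM. Slc7a11, the light chain of the cystine-glutamate exchanger, fell by 1.48 (SE 0.20) and 2.42 (SE 0.20).

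Of the 4 mitochondrial carriers, Slc25a18, a glutamate carrier, fell in adult culture by 4.19 (SE 0.13) and in neonatal culture by 1.90 (SE 0.12), whereas Slc25a22, the other glutamate carrier, was at 0.11 and 0.17 and was not called. Of the 17 enzymes, 7 rose and 8 fell in adult culture and 8 rose and 6 fell in neonatal culture (88.2% and 82.4% called, against 78% and 65.7% of all genes). Asns, which makes asparagine and uses glutamine as nitrogen donor, rose most among them at both ages, by 5.60 (SE 0.31) and 3.19 (SE 0.28). Prodh, the first enzyme of proline breakdown to glutamate, fell by 4.29 in adult culture (SE 0.19) and rose by 0.91 in neonatal culture (SE 0.17). Gpt, an alanine aminotransferase, fell in both, by 3.07 (SE 0.15) and 1.78 (SE 0.15). The receptor gene Grm3 fell by 4.93 (SE 0.15) and 5.24 (SE 0.15), to 9.59 and 13.6 CPM. Grm5, the other metabotropic receptor of the list, was at 269 CPM in neoAC direct and 2.06 CPM in AdAC direct, and had 23.2 and 7.99 CPM after culture. Ajuba, whose product binds GLT-1, rose by 3.04 (SE 0.11) and 2.14 (SE 0.10).

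In AGES against NSC, 13 list genes rose and 19 fell (76.2% called, against 65.7% of all genes, median −0.38, or −0.16 with genes at the floor of 3 counts per library set to their bound). Slc38a1, a system A carrier for glutamine, rose by 2.32 (SE 0.14), and Pcx, pyruvate carboxylase, which feeds new glutamate synthesis in astrocytes, rose by 2.39 (SE 0.21). Bcat1, the cytosolic branched-chain aminotransferase, fell by 6.63 (SE 0.23), Slc7a11 by 3.24 (SE 0.27) and Grm3 by 2.82 (SE 0.16). All 3 partners of the glutamate transporters in the list, Ajuba, Arl6ip5 and Slc9a3r1, rose, by 1.68, 0.94 and 0.57. Against the cultured primary cells, AGES had 8 list genes higher and 22 lower than neoAC CellC (71.4% called, against 74.6% of all genes, but 57.1% against 43.6% where a log2 fold change over 1 was also required, median −0.64, or −0.55 with genes at the floor set to their bound) and 10 higher and 26 lower than AdAC CellC (85.7% called, against 76.2%, median −1.11, or −0.92). The 2 carriers Slc38a1 and Slc38a2 were among those higher, Slc38a1 by 1.41 (SE 0.14) and 2.02 (SE 0.14), and Slc38a2 by 2.54 (SE 0.20) and 1.36 (SE 0.19), the opposite of Slc38a3. Slc1a1, the neuronal glutamate carrier EAAC1, had 3 counts or fewer in every AGES library and was at least 75.5-fold lower than in neoAC CellC and at least 23.5-fold lower than in AdAC CellC. Gad2, a glutamate decarboxylase, was also at this floor and was at least 38.2-fold and 46.4-fold lower. Between the ages, 17 list genes were higher and 20 lower in neonatal cells after culture (88.1% called, against 63.8% of all genes), and 21 were higher and 14 lower in fresh cells (83.3% called, against 71.4%).

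**Figure D4:**
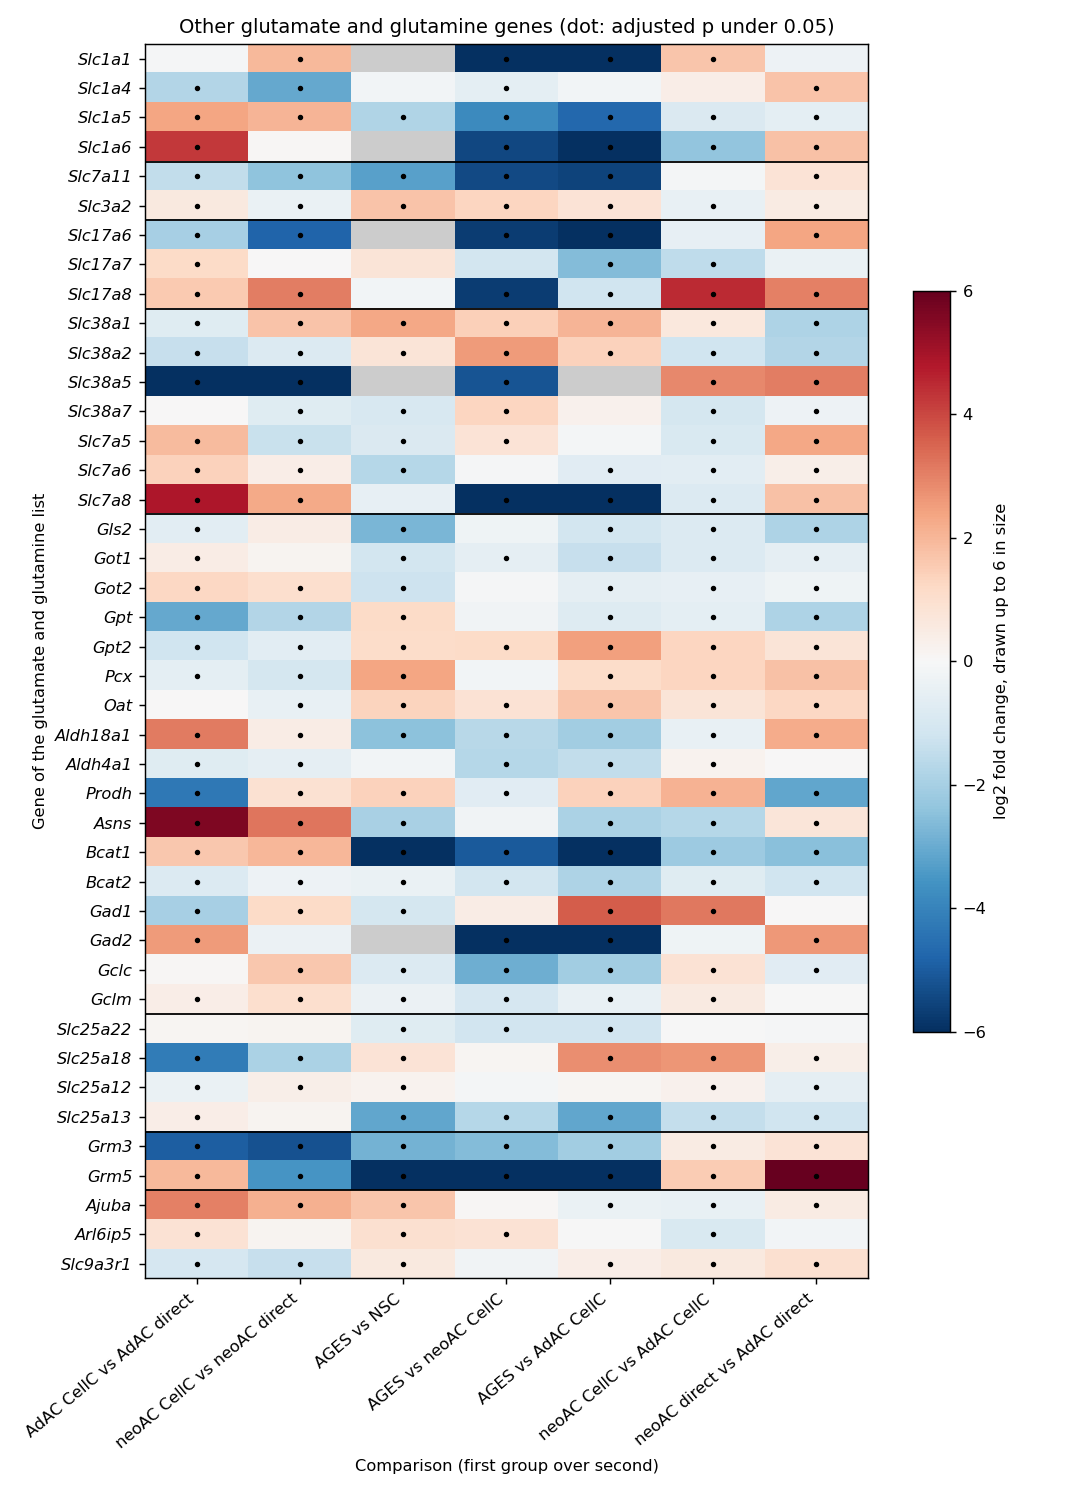
Log2 fold change of the 42 tested list genes in the 7 comparisons, red higher and blue lower in the first group, with colours drawn up to a size of 6. Dots mark an adjusted p under 0.05, grey cells a gene with 3 counts or fewer in every library of both groups, and lines separate the classes of the list. Grm3, Slc1a4 and Slc25a18 are blue in both culture comparisons, while Slc1a5, Asns and Ajuba are red.

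Genes with patterns most like the members were found by Pearson correlation of log2 CPM over the 24 libraries, among 12562 genes with a group mean of at least 10 CPM. The libraries fall into 6 groups, so these values mainly describe likeness of group levels. For Slc1a2 they were Gm10561 (r = 0.978), Atp13a4 (0.974) and Mapk4 (0.974), and for Slc1a3 Pou6f1 (0.970), Cspg5 (0.970) and Tril (0.969). For Glul they were Gna12 (0.978), 4933431E20Rik (0.975) and Arrb1 (0.971). For Slc38a3 they were Slc6a13 (0.959), Ednra (0.958) and Mcur1 (0.957), and for Glud1 Agpat3 (0.983), Gm44645 (0.981) and Nr2f1 (0.969). Among the members, Slc1a2 and Slc1a3 were most alike (r = 0.901), yet Slc1a3 ranked only 90 among the genes most like Slc1a2. Slc38a3 and Glud1 were least alike (r = 0.491). Rank correlations were lower than these for every gene named, with Spearman's rho at 0.841, 0.685 and 0.651 for the genes of Glul, in the order of naming, and between 0.797 and 0.939 for those of the other members.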

How the data were processed

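RNA was sequenced from 24 libraries prepared with a stranded mRNA kit. Per the paper's methods and the submitters' processing notes, the authors aligned reads to GRCm38 with STAR 2.7.3a and counted reads on exons with featureCounts and the Gencode vM12 annotation. What was deposited is a table of raw counts per gene, summing to 27904126 to 37997368 in a library, and the strand setting of counting was not given in the sources used here. Identifiers were matched to Gencode vM21 (49326 of 49671, 99.3%). The analysis ran edgeR 4.0.16 under R 4.3.3: genes were kept by filterByExpr, scaled by TMM, and fitted with a robust quasi-likelihood model that had 6 group means. Adjustment by Benjamini-Hochberg covered the 19691 genes kept, at a threshold of 0.05. Log2 CPM for correlations used a prior count of 2. A standard error is the size of a log2 fold change over the root of its F statistic, and 95% intervals use the degrees of freedom of the fit. The test was tried on simulated data with known changes.

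Groups came from the sample titles. Alternatives were DESeq2 1.42.0 size factors and its Wald test, library size alone, other filters (none, or 10 counts in every library), a log2 fold change over 1 (for counts of pathway genes only), fits restricted to the groups of a comparison, once with a replicate block, and leaving out each library. The members and lists were chosen with earlier results of these data known. A gene of the pathway list and a gene of the oligodendrocyte list are not reported here and were left out of the counts and sums. Named genes are the members, genes of the pathway and marker lists, and for each member the 3 genes with the highest correlation. Promoter windows came from RefSeq, with entries for Slc1a2, Slc1a3, Glul and Glud1 but not Slc38a3. Near-identical copies were sought by blastn at 95% identity over 200 bases. At 3 counts or fewer in every library of a group a gene was taken as at the floor, which covers counting error only.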

Additional observations from a re-analysis of the deposited data

Results flagged for a closer look

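The change in culture differed between adult and neonatal astrocytes for 4 of the 5 genes, by an interaction term of the edgeR fit that was called for 68.6% of all tested genes. Adult minus neonatal, the difference was −3.54 for Slc1a2, −1.16 for Slc1a3, −3.73 for Slc38a3 and 0.95 for Glud1 on the log2 scale, with adjusted p-values between 1.26e-15 and 6.27e-06. Slc38a3 moved in opposite directions, up in all 4 neonatal cultures and down in all 4 adult ones. Leaving out any 1 of the 16 libraries kept these 4 calls, within −3.61 to −3.48, −1.30 to −1.03, −3.79 to −3.65 and 0.91 to 1.01. In the adult pair of groups the sum of 6 oligodendrocyte markers went from 12900 to 13700 CPM down to 3260 to 8250 CPM, and in the neonatal pair it stayed at or below 361 CPM. The sum of 3 ependymal markers went from 870 to 979 CPM down to 192 to 270 CPM in adult culture. In neonatal culture it went from 113 to 170 CPM up to 1240 to 1570 CPM, so both had the directions of Slc38a3. From NSC to AGES and from fresh neonatal to fresh adult cells the sum rose while Slc38a3 did not. The part of either list in the differences was not tested. Among 30 sets of 4 libraries, 1 for each gene and group, none had a library flagged by Dixon's criterion, which can miss outliers among 4 values. Slc1a2 in NSC replicate 2 was at 121.6 CPM, and the lowest of the other NSC libraries was at 216.4 CPM.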

How the results depend on the processing

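Of 40 member results, 32 kept their direction and call under every alternative run on them, which did not include a threshold on fold change. Glul in AGES against NSC (−0.31) was not called with DESeq2 size factors (−0.22), no filter (−0.23), 10 counts in every library (−0.20), DESeq2's own Wald test (−0.22) or the 2 groups alone (−0.21), and leaving out 1 library gave −0.36 to −0.22. Slc1a3 in AGES against NSC was called with library size alone (−0.32), and leaving out 1 library gave −0.35 to −0.13. Slc38a3 in neoAC direct against AdAC direct was not called with library size alone (0.19) or 10 counts in every library (0.18), and leaving out 1 library gave 0.21 to 0.34. Small differences of AGES against neoAC CellC changed sign. Slc1a2 was at −0.05 with DESeq2 size factors and with its Wald test, −0.29 with library size alone, −0.15 with 10 counts in every library, −0.03 with the 2 groups alone, and −0.12 to 0.15 without 1 library. Glul was at −0.01 with DESeq2 size factors and its Wald test, −0.25 with library size alone, −0.11 with 10 counts in every library, and −0.01 to 0.13 without 1 library. Slc1a3 was at −0.11 with library size alone and 0.09 to 0.30 without 1 library. Glud1 was called with library size alone (−0.34) and 10 counts in every library (−0.20), at 0.00 without a filter, and −0.09 to 0.01 without 1 library. The interaction of Glul was at −0.10 to 0.12 without 1 library. With library size alone the median of all genes moved from 0.04 to 0.27 for neoAC CellC against neoAC direct and from −0.23 to −0.44 for AGES against AdAC CellC. Requiring a log2 fold change over 1 left 22 of 42 list genes for neoAC CellC against neoAC direct (52.4%, against 32.6% of all genes), 21 for AGES against NSC (50%, against 38%), 16 for neoAC CellC against AdAC CellC (38.1%, against 29.8%) and 20 for neoAC direct against AdAC direct (47.6%, against 39.1%). In the other 3 comparisons the list's share was also above that of all genes: 61.9% against 48.7% for AdAC CellC against AdAC direct, 69% against 46.7% for AGES against AdAC CellC and 57.1% against 43.6% for AGES against neoAC CellC. The cause of these shifts was not tested.

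Replicate numbers did not pair the samples: deviations of same-numbered libraries correlated between −0.10 and 0.11, and at most 2 of 4 libraries correlated best with their own number. The replicate block was added to fits of the compared groups alone. With it, Glul in AGES against NSC was not called (−0.21, adjusted p = 0.124), but the same fit without the block also gave −0.21 and no call. Slc1a2 in AGES against neoAC CellC was not called in any of these fits. Its sign differed from that in the fit of all 6 groups both with the block (−0.06) and without it (−0.03). The other 45 of 47 results kept their direction and call, or for counts stayed within 1.5 times.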
